A study of Mus musculus with 12 samples.

Results

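The 10 genes described here belong to the unfolded protein response (UPR): the sensors Ern1 and Atf6, the transcription factor Xbp1, the chaperones Hspa5 and Hsp90b1, the co-chaperones Dnajb9 and Sdf2l1, the disulfide isomerase Pdia4, the secreted ER protein Creld2 and the degradation factor Herpud1. They were chosen by symbol from the rows of the deposited RNA-seq table, 10 of the 15156 entries that name a gene, and all 10 passed the filter on low counts. The table holds bulk RNA-seq of mouse embryonic fibroblasts that the papillomavirus protein HPV E6 immortalised, grown for 24 h in DMEM with 10% fetal bovine serum. The p27 KO cells are 1 line labelled p27-/- with 4 libraries, and they were set against p27 WT clone2 and p27 WT clone1, 2 wild-type lines with 4 libraries each. p27 is the cyclin-dependent kinase inhibitor that Cdkn1b encodes, and the comparison asks how fibroblasts without it differ in transcription. Because p27 KO is a single line, its genotype and the line itself cannot be told apart. The libraries of a line are numbered by experiment, but the labels do not say that experiments are separate cultures. If they are not, p-values reflect only how far these libraries vary, which may be technical variation.

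Proteins bound for the cell surface, the secretory pathway or the extracellular matrix fold in the endoplasmic reticulum (ER), and fibroblasts, which secrete collagen, load it heavily. Unfolded chains draw the chaperone BiP, the product of Hspa5, away from the sensors IRE1 (Ern1), ATF6 and PERK. IRE1 removes a short intron from the Xbp1 messenger, whose spliced form encodes an active transcription factor, while ATF6 moves to the Golgi, where proteases release its own transcription factor part. Both factors then raise chaperones, folding enzymes and degradation factors through ER stress response elements in promoters. Gene counts hold the total of each messenger and say nothing of Xbp1 splicing, of sensor activation or of protein.

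The ER stress response element is the promoter motif through which this response is known to act, and its occurrences are shown here to tell which members carry it. Promoter sequences from RefSeq (table build GRCm38.p6) covered 9 of the 10 members, and each matched GRCm39 at 1 place, which gave the coordinates below. In the 250 bases before the transcript start, both strands were searched for CCAAT followed by 9 bases of any kind and then CCACG, and for the second form of the element, ATTGG followed by 1 base and then CCACG. The first form stood in the promoters of Hspa5 (once), Hsp90b1 (2 occurrences) and Creld2 (once), 3 of the 9 members, against 0.113% of 32851 promoters. These belong to 27025 genes and are called all promoters here, although 1 chromosome, which holds no member, was left out. Shares are per promoter, while members are counted per gene. The second form stood in Herpud1, 1 of the 9 members, against 0.0304% of all promoters. These elements were searched because genes of this response are known to carry them. The shares are therefore description only, and enrichment was not tested. Capitals mark the element's fixed letters, which on the opposite strand read CGTGG and ATTGG.
Hspa5, chr2:34662027-34662065 (GRCm39, plus strand): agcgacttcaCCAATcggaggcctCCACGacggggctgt
Hsp90b1, chr10:86541387-86541530 (GRCm39, minus strand): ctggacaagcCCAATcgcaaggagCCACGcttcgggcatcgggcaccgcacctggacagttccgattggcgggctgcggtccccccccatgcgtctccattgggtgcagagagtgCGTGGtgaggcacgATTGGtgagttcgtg
Creld2, chr15:88703713-88703751 (GRCm39, plus strand): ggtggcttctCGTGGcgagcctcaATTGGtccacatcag
Herpud1, chr8:95112995-95113025 (GRCm39, plus strand): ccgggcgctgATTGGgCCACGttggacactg
The Hspa5 window runs from base -75 to base -37 and the Creld2 window from base -136 to base -98, counted from the RefSeq start. The Hspa5 window lies inside the span that GENCODE gives the gene, and those of Hsp90b1 and Herpud1 lie partly inside theirs. The core CCACG alone, which counts sites inside the full elements too, was present in 7 of the 9 members and in 28.3% of all promoters, and CCAAT alone in 7 of the 9 members and 33.8% of all promoters. The UPR element, TGACG directly followed by the letters TGG, was in 0 of the 9 members and in 0.563% of all promoters. A match is only a run of letters, and no match says only that the letters are not in this window.

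Between 15.4 and 24.0 M counts fell in named genes per library (SD 2.18 M, n = 12), and levels below are CPM, each library's counts scaled by its depth and its TMM factor. The least counted member value was Sdf2l1 in experiment 4 of p27 KO, with 124 reads. The 8 fibroblast markers summed to 17797 to 23801 CPM in p27 KO, 20988 to 28296 CPM in WT clone2 and 16927 to 23589 CPM in WT clone1. Of the epithelial list only Cdh1 could be read, at 0 in every KO library and at most 1.49 CPM elsewhere, and 0 of the 4 genes of the blood list and 0 of the 4 of the skeletal muscle list could be read. Cdkn1b itself was not lower in the libraries labelled p27 KO (104 ± 15.9 CPM, n = 4) than in the WT libraries (95.4 ± 10.8 CPM, n = 8; SD), with a log2 fold change of 0.12 ± 0.11 (SE, adjusted p = 0.499), so gene counts do not check that label. The first experiments of p27 KO and WT clone1 stood apart: 1.06 and 1.33% of their counts were mitochondrial and 5.54 and 5.35% came from ribosomal protein genes, against 1.74 to 3.09% and 3.39 to 4.99% in the other 10 libraries.

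Per kilobase of merged exons, Hspa5 was the highest of the members, at 125 CPM per kilobase over the 12 libraries, followed by Hsp90b1 at 83.1 and Pdia4 at 30.7. Creld2 (18.5 CPM per kilobase), Herpud1 (16.9), Sdf2l1 (12.998) and Atf6 (10.4) came next, and Xbp1 (6.32), Dnajb9 (3.42) and Ern1 (2.46) were the lowest. By the gene lengths that the authors deposited, Herpud1 stood above Creld2 and Xbp1 above Atf6 and Sdf2l1, and the other 6 genes kept their places. Summed over the 10 members, the level was 1634 ± 195 CPM in p27 KO, 1834 ± 103 CPM in WT clone2 and 1719 ± 123 CPM in WT clone1 (SD, n = 4 each), and the libraries of the 3 lines overlapped. Fewer cells of a kind and less RNA per cell cannot be told apart in these bulk values.

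Against both WT lines pooled, p27 KO differed in 1 of the 10 members. Pdia4 fell, and the other 9 did not pass the edgeR test at an adjusted p under 0.05. That is 1 of 10 members lower and 0 of 10 higher, beside 10.3% of the 14392 genes tested that were lower and 8.47% that were higher, so the share of members that were lower is near the background. By unadjusted p, 4 members were under 0.05, beside 4550 of the 14392 genes. DESeq2 called 2 members, Pdia4 and Dnajb9, beside 3430 of the 14392 genes. A fit with 1 mean per line called 3, Atf6, Dnajb9 and Pdia4, and counts summed per line called 0, with 0 at an unadjusted p under 0.05. Over all genes, the fit with 1 mean per line called 4871 of 14392. The members' median log2 fold change was -0.17, against -0.03 over all genes tested. The WT lines differed between themselves in several members, so each gene is given below by line.

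**Figure D1:**
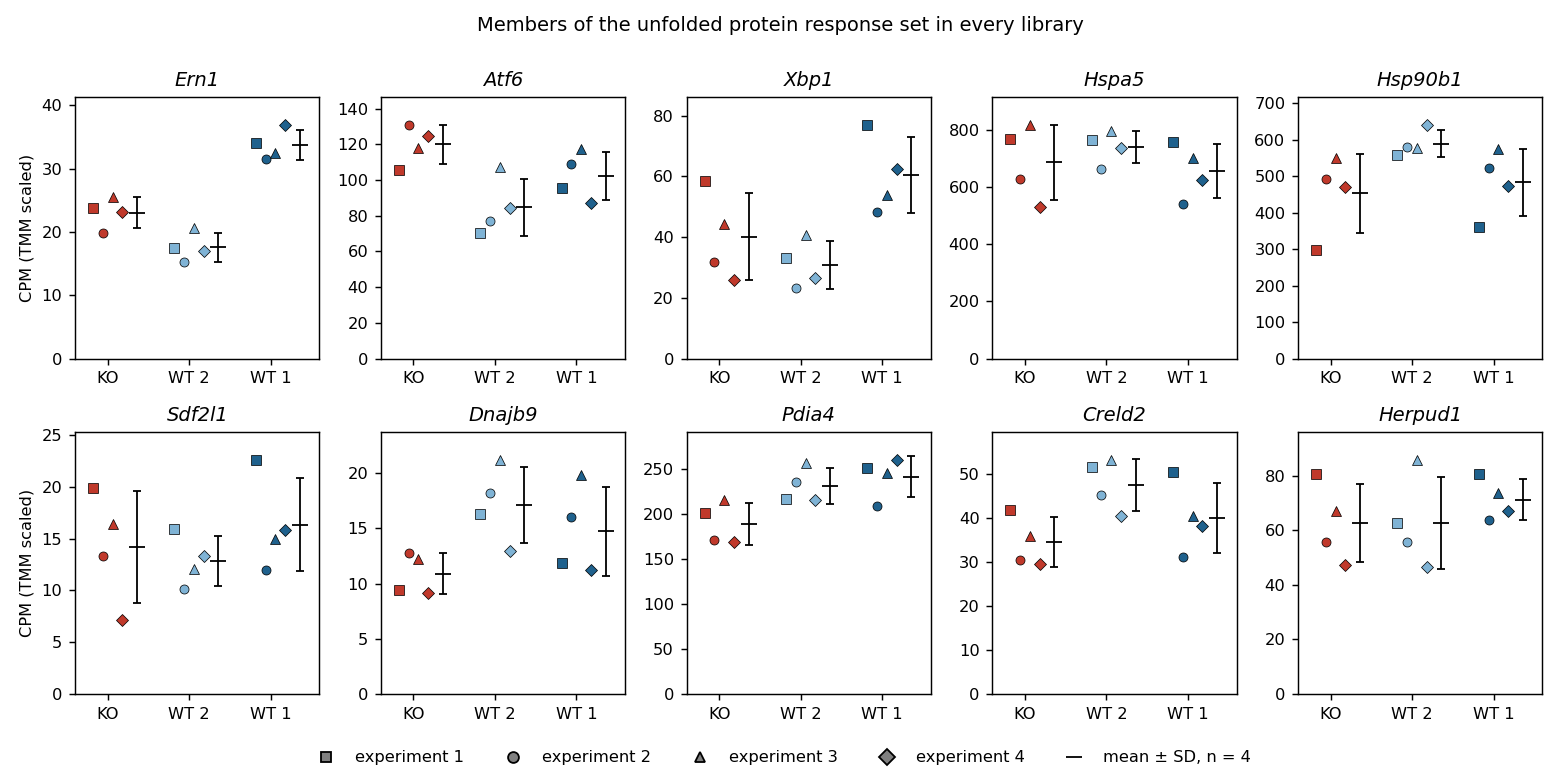
CPM of each member (vertical axes, from 0, 1 panel per gene) in every library of p27 KO (red), WT clone2 (light blue) and WT clone1 (dark blue); marker shapes give the experiment and the bars show mean ± SD (n = 4). The KO mean lies between the WT means for Ern1, and all 4 KO libraries lie below WT clone2 for Hsp90b1, Dnajb9 and Pdia4.

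The sensor Ern1, which encodes IRE1 (chr11:106283818-106378686, minus strand, GRCm39), differed between each pair of lines. It stood at 23.8, 19.8, 25.5 and 23.2 CPM in the KO libraries, 17.4, 15.2, 20.7 and 16.98 CPM in WT clone2 and 34.1, 31.5, 32.5 and 36.9 CPM in WT clone1, in the order of experiments 1 to 4. Every KO library lay below every WT clone1 library, while the KO and WT clone2 libraries overlapped in 1 library each. Ern1 fell by 31.7% in p27 KO against WT clone1 (log2 fold change -0.55 ± 0.11, SE; adjusted p = 0.00141). It rose in p27 KO against WT clone2, by 0.39 ± 0.11 on the log2 scale (adjusted p = 0.0127). WT clone2 itself was lower than WT clone1 at -0.94 ± 0.11 on the log2 scale (adjusted p = 1.45e-05). Against the pooled WT libraries the contrast with p27 KO was -0.15 ± 0.25 and did not pass (adjusted p = 0.714). The call against WT clone2 was lost without the experiment 1 libraries of all 3 lines (log2 fold change 0.36, adjusted p = 0.0503).

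Xbp1, whose messenger IRE1 splices (chr11:5470606-5483027, plus strand), was ordered like Ern1 but with a wider spread. Its levels were 58.4, 31.8, 44.3 and 25.9 CPM in the KO libraries, 33.01, 23.1, 40.7 and 26.5 CPM in WT clone2 and 77.02, 48.4, 53.9 and 62.5 CPM in WT clone1. WT clone2 lay wholly below WT clone1, and p27 KO overlapped both. Xbp1 fell by 48.97% in WT clone2 against WT clone1 (log2 fold change -0.97 ± 0.24, SE; adjusted p = 0.00565). The log2 fold change of p27 KO was -0.59 ± 0.24 against WT clone1 (adjusted p = 0.0735), 0.38 ± 0.24 against WT clone2 (adjusted p = 0.243) and -0.19 ± 0.32 against the pooled WT libraries (adjusted p = 0.734), and none of these passed. Within p27 KO the highest library, experiment 1, was 2.26 times the lowest, experiment 4. Without experiment 1 of p27 KO the fall against WT clone1 passed (-0.83 on the log2 scale, adjusted p = 0.00987), and the same call came with the correction for GC content described below (-0.64, adjusted p = 0.0259). Exons of Xbp1 share 1526 bases with exons of Ccdc117 on the opposite strand, and the strand setting of the counting is not given in the sources used here, so reads of the 2 genes may be mixed. Endothelial markers were also highest in WT clone1: the 3 of the 4 listed genes that could be read summed to 0.516 to 2.19 CPM in p27 KO, 0.343 to 0.621 CPM in WT clone2 and 5.81 to 15.8 CPM in WT clone1. Most of the WT clone1 sum was Kdr, while Pecam1 stayed at or under 0.334 CPM in every library. The part of these markers in the Ern1 and Xbp1 results was not tested.

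Atf6, the sensor that is itself cut into a transcription factor (chr1:170532026-170696208, minus strand), was higher in p27 KO than in WT clone2. It stood at 106, 131, 118 and 125 CPM in the KO libraries, 70.3, 77.3, 107 and 84.5 CPM in WT clone2 and 95.3, 109, 118 and 87.2 CPM in WT clone1. Of the KO libraries 3 lay above all 8 WT libraries, and experiment 1 of p27 KO fell among them. Atf6 rose in p27 KO against WT clone2 by 41.5% (log2 fold change 0.50 ± 0.13, SE; adjusted p = 0.00915). Against WT clone1 it was 0.23 ± 0.13 (adjusted p = 0.198) and against the pooled WT libraries 0.36 ± 0.13 (adjusted p = 0.0785), which did not pass. The pooled contrast passed with 1 mean per line (0.37, adjusted p = 0.0232) and without WT clone1 experiment 3 (0.41, adjusted p = 0.0414).

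**Figure D2:**
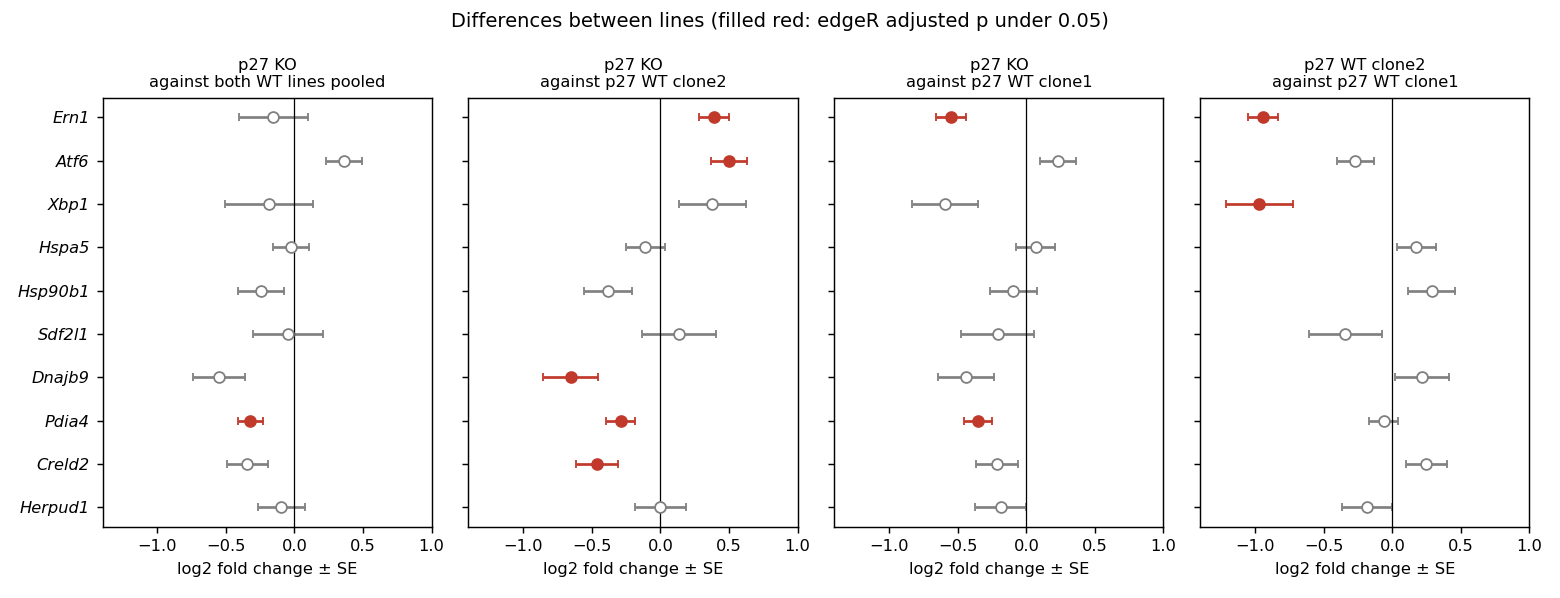
Log2 fold change ± SE (horizontal axes) of the 10 members (rows) in the 4 comparisons between lines; filled red points passed the edgeR test at an adjusted p under 0.05 and open grey points did not. Pdia4 is red in all 3 comparisons of p27 KO, and Ern1 is red on opposite sides of 0 against the 2 WT lines.

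Hspa5, which encodes the main ER chaperone BiP and is the usual readout of the response (chr2:34661982-34668880, plus strand), did not pass the test in any comparison between lines. It stood at 769, 629, 819 and 531 CPM in the KO libraries, 764, 665, 797 and 737 CPM in WT clone2 and 759, 540.0, 700.3 and 624 CPM in WT clone1. The 3 lines overlapped, and within p27 KO experiment 3 was 1.54 times experiment 4. The mean was 687 ± 131 CPM in p27 KO (n = 4) and 698 ± 85.4 CPM in the 8 WT libraries (SD). The log2 fold change of p27 KO against them was -0.02 ± 0.13 (SE, adjusted p = 0.922), and its sign turned when single libraries were left out, over a range of -0.12 to 0.10. Against each line it was -0.11 ± 0.14 for WT clone2 and 0.07 ± 0.14 for WT clone1, and WT clone2 against WT clone1 gave 0.18 ± 0.14 (adjusted p of 0.574, 0.751 and 0.34). Exons of Hspa5 share 2457 bases with Rabepk on the opposite strand, so its reads carry the same doubt about strand.

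Hsp90b1, which encodes the ER chaperone GRP94 (chr10:86526073-86541446, minus strand), was lowest in the first experiment of every line. It stood at 297, 491, 550.5 and 471 CPM in the KO libraries, 557, 580.5, 578 and 641 CPM in WT clone2 and 362, 522, 575 and 473 CPM in WT clone1. All 4 KO libraries lay below all 4 WT clone2 libraries and overlapped with WT clone1. The log2 fold change of p27 KO was -0.38 ± 0.17 against WT clone2 (SE, adjusted p = 0.101), -0.09 ± 0.17 against WT clone1 (adjusted p = 0.715) and -0.24 ± 0.17 against both pooled (adjusted p = 0.355), and none passed. With the correction for GC content the difference from WT clone2 passed at -0.31 (adjusted p = 0.0331). WT clone2 was 0.29 ± 0.17 against WT clone1 on the log2 scale (adjusted p = 0.205). With experiment as a block, though pairing by experiment was not established, this difference passed at 0.32 (adjusted p = 0.0372). A transcript of Adal matches the Hsp90b1 exons at 95.7% over 512 bases, so some reads may be shared.

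Dnajb9, which encodes ERdj4, a partner of BiP that represses IRE1 (chr12:44252341-44257171, minus strand), stood at 9.41, 12.8, 12.2 and 9.18 CPM in the KO libraries, 16.3, 18.2, 21.2 and 12.9 CPM in WT clone2 and 11.8, 16.01, 19.9 and 11.2 CPM in WT clone1. All KO libraries lay below all WT clone2 libraries, and they overlapped with WT clone1. Dnajb9 fell by 36.5% in p27 KO against WT clone2 (log2 fold change -0.65 ± 0.20, SE; adjusted p = 0.0202). Against the pooled WT libraries it had the most negative log2 fold change of the 10 members, -0.55 ± 0.19, which edgeR did not call (adjusted p = 0.0638) and DESeq2 did (adjusted p = 0.0278). EdgeR also called it without WT clone1 experiment 1 (adjusted p = 0.0347) or WT clone1 experiment 4 (adjusted p = 0.0375). Against WT clone1 it was -0.44 ± 0.20 (adjusted p = 0.109). The call against WT clone2 was lost with the GC correction (-0.41, adjusted p = 0.134) and without any 1 of 4 libraries (p27 KO experiment 1 or 4, WT clone2 experiment 2 or 3; adjusted p of 0.0502 to 0.0636). The processed pseudogene Gm6568 matches Dnajb9 at 98.1% over 156 bases and has counts of its own, so the split of reads between them is uncertain.

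Sdf2l1, whose product works with ER co-chaperones and BiP (chr16:16948002-16950252, minus strand), varied more within p27 KO than any other member, with the highest library 2.77 times the lowest. It stood at 19.8, 13.3, 16.4 and 7.16 CPM in the KO libraries, 15.9, 10.2, 12.1 and 13.3 CPM in WT clone2 and 22.6, 12.01, 14.98 and 15.9 CPM in WT clone1. Experiment 1 was the highest library of each line, and the lines overlapped. The log2 fold change of p27 KO was -0.05 ± 0.25 against the pooled WT libraries (SE, adjusted p = 0.924), 0.14 ± 0.27 against WT clone2 and -0.21 ± 0.27 against WT clone1 (adjusted p of 0.726 and 0.583). Left-out libraries turned the sign of the pooled value, between -0.25 and 0.20, so no direction can be given.

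Pdia4, which encodes the disulfide isomerase ERp72 (chr6:47770077-47790462, minus strand), was the member called in all 3 comparisons of p27 KO. It stood at 201, 171, 215 and 168 CPM in the KO libraries, 216, 235, 257 and 215 CPM in WT clone2 and 251, 208, 245 and 259.6 CPM in WT clone1. The KO libraries lay below all WT clone2 libraries, the closest pair being 215.2 against 215.4 CPM, and 1 WT clone1 library lay among them. The mean was 189 ± 22.9 CPM in p27 KO (n = 4), against 236 ± 20.4 CPM in the 8 WT libraries (SD). Pdia4 fell by 19.97% in p27 KO against both lines pooled (log2 fold change -0.32 ± 0.09, SE; adjusted p = 0.0312), dropped by 21.7% against WT clone1 (-0.35 ± 0.10, adjusted p = 0.018) and dropped by 18.2% against WT clone2 (-0.29 ± 0.10, adjusted p = 0.0428). WT clone2 against WT clone1 gave -0.06 ± 0.10 (adjusted p = 0.666). The pooled call was lost without p27 KO experiment 2 (-0.26, adjusted p = 0.139), p27 KO experiment 4 (-0.25, adjusted p = 0.137) or WT clone1 experiment 4 (-0.29, adjusted p = 0.0641), and with the GC correction (-0.30, adjusted p = 0.0673). The call against WT clone2 was lost without any 1 of 8 libraries (p27 KO experiment 2 or 4, any of WT clone2, WT clone1 experiment 1 or 3; log2 fold changes of -0.32 to -0.21), with the GC correction (-0.25, adjusted p = 0.0952) and with no filter (-0.27, adjusted p = 0.0644). That against WT clone1 was lost without p27 KO experiment 2 or 4 or WT clone1 experiment 4 (-0.31 to -0.29).

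Creld2, an ER protein induced by unfolded proteins (chr15:88703795-88710890, plus strand), stood at 41.9, 30.4, 35.95 and 29.6 CPM in the KO libraries, 51.4, 45.1, 53.1 and 40.4 CPM in WT clone2 and 50.3, 31.1, 40.3 and 38.2 CPM in WT clone1. The KO libraries overlapped with each WT line, with WT clone2 in a single library of either line, and experiment 1 was the highest in p27 KO and in WT clone1. Creld2 fell by 27.5% in p27 KO against WT clone2 (log2 fold change -0.46 ± 0.15, SE; adjusted p = 0.0272), a call lost without any 1 of 5 libraries (p27 KO experiment 2 or 4, WT clone2 experiment 1, 2 or 3; adjusted p of 0.0587 to 0.109). Against the pooled WT libraries it was -0.34 ± 0.15 (adjusted p = 0.134), which passed once GC content was corrected (-0.40, adjusted p = 0.0371). Against WT clone1 it was -0.21 ± 0.15 (adjusted p = 0.3).

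Herpud1, a membrane factor of ER-associated degradation (chr8:95113022-95123141, plus strand), stood at 80.5, 55.6, 67.2 and 47.4 CPM in the KO libraries, 62.7, 55.8, 85.8 and 46.6 CPM in WT clone2 and 80.6, 63.9, 73.6 and 66.99 CPM in WT clone1. Experiment 1 was the highest in p27 KO and WT clone1, experiment 3 in WT clone2, and the lines overlapped throughout. Its log2 fold change was -0.10 ± 0.17 in p27 KO against both WT lines pooled (SE, adjusted p = 0.741), 0.00 ± 0.19 against WT clone2 (adjusted p = 0.997) and -0.19 ± 0.19 against WT clone1 (adjusted p = 0.473). Its exons share 145 bases with Gm15890 on the opposite strand.

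Counted by line, 2 of the 10 members were higher and 3 lower in p27 KO against WT clone2, beside 19.2% and 19.2% of all genes tested. Against WT clone1, 0 were higher and 2 lower, beside 16.8% and 19.3%. Between WT clone2 and WT clone1, 0 were higher and 2 lower, beside 20.7% and 21.9%. No test of these counts against those shares was run, and the comparisons share libraries. Next, the libraries that stood apart, experiment 1 of p27 KO and WT clone1, were left out. Then 5 members were called against WT clone2, beside 6121 of 14426 genes, and 3 against WT clone1, beside 5678. Against both pooled 1 was called, beside 2332, and 3 in WT clone2 against WT clone1, beside 7216. With experiment as a block, WT clone2 against WT clone1 gave 5 calls, beside 7342 of 14566 genes tested. The 5 were Ern1 and Xbp1, Atf6 lower (-0.27, adjusted p = 0.0425), Hsp90b1 higher, and Creld2 higher (0.26, adjusted p = 0.0301). Pairing of the lines by experiment was not established. Without the block Atf6 was -0.27 ± 0.13 (adjusted p = 0.12) and Creld2 0.25 ± 0.15 (adjusted p = 0.206).

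The authors' deposited table, whose log2 fold changes have the signs of p27 KO over WT, gave more calls among the members. In the authors' deposited table Pdia4 had a log2 fold change of -0.32 (adjusted p = 0.000102), Dnajb9 -0.54 (adjusted p = 0.000357), Creld2 -0.34 (adjusted p = 0.0172) and Atf6 0.37 (adjusted p = 0.0167). The other 6 had adjusted p-values of 0.0987 to 0.877 in the authors' deposited table.

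Within lines, several members moved together from experiment to experiment. Hspa5, Sdf2l1, Creld2, Herpud1 and Xbp1, grouped after their values were seen, had pairwise Pearson correlations of 0.60 to 0.88 (median 0.83, median Spearman's rho 0.82) over the 12 libraries, when each library was set against the mean of its line on the log2 CPM scale. Before line means were removed, the range was 0.20 to 0.79 (median 0.60). Pdia4, left out of that group, correlated with the 5 genes at 0.51 to 0.76. Hsp90b1 ran the other way, with Pearson correlations of -0.67 to -0.30 with these 5 genes, and Dnajb9 was near 0, from -0.16 to 0.32. The libraries share depth and composition in these values, which serve as description only. In p27 KO, experiment 1 was above its line mean by 0.61 for Xbp1, 0.58 for Sdf2l1, 0.39 for Herpud1, 0.29 for Creld2 and 0.18 for Hspa5 (log2), and experiment 4 differed from it by -0.56, -0.88, -0.37, -0.20 and -0.35 in the same gene order. Without the experiment 1 libraries of p27 KO and WT clone1 the median correlation was 0.77, but the values of Hsp90b1 with the 5 genes then turned positive, 0.04 to 0.55.

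**Figure D3:**
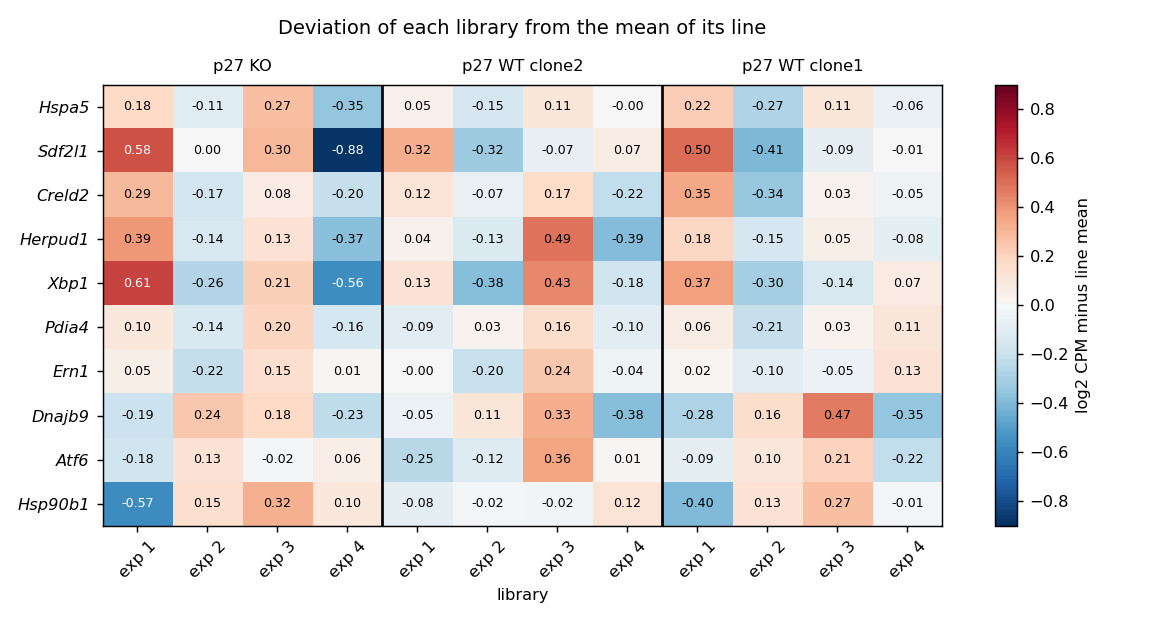
Difference of each library's log2 CPM from the mean of its line (colour and printed value) for the 10 members (rows) in the 12 libraries (columns, by line and experiment). Experiment 1 of p27 KO is high for Xbp1 (0.61) and Sdf2l1 (0.58) and low for Hsp90b1 (-0.57), and experiment 4 of p27 KO is low for Sdf2l1 (-0.88).

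Outside the set, 5 genes were most like Hspa5 by Pearson correlation of log2 CPM over the 12 libraries, among 9256 genes with a mean of at least 10 CPM. Jkamp led (r = 0.876), followed by Calr (r = 0.839), Tmed9 (r = 0.839), Cnn3 (r = 0.832) and Vps72 (r = 0.82). Calr encodes calreticulin, another ER chaperone, and Tmed9 a carrier protein of ER to Golgi traffic. Once line means were removed, their correlations were 0.82 to 0.911. These come from the same libraries by which the genes were picked, so they are description only.

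The first experiments were also compared with experiments 2 to 4, with 1 mean per line in the fit, a comparison chosen after the data were seen. Experiment 1 had 2 members higher, beside 7.08% of 14566 genes tested, and 1 lower, beside 11.2%. Sdf2l1 rose by 0.60 ± 0.18 on the log2 scale (SE, adjusted p = 0.0327) and Creld2 by 0.34 ± 0.10 (adjusted p = 0.0386), while Hsp90b1 was at -0.45 ± 0.11 (adjusted p = 0.0147). Xbp1 was 0.48 ± 0.18 and did not pass (adjusted p = 0.0732). All 3 calls were lost without experiment 1 of p27 KO (adjusted p of 0.166 to 0.211) and, separately, without experiment 1 of WT clone1 (adjusted p of 0.136 to 0.214). That of Sdf2l1 was also lost without WT clone1 experiment 2, and that of Creld2 without any 1 of 5 more libraries (p27 KO experiment 2 or 4, WT clone2 experiment 2 or 4, WT clone1 experiment 2; adjusted p of 0.0502 to 0.0637). Xbp1 passed without WT clone2 experiment 1 or 3 and Herpud1 without WT clone2 experiment 3 (adjusted p of 0.0301, 0.0104 and 0.0246).

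The libraries that stood apart had higher values for GC-rich transcripts. Over 14385 genes, the deviation of a library from its line mean correlated with the GC content of the transcript at r = 0.61 in experiment 1 of p27 KO and r = 0.54 in experiment 1 of WT clone1, and at -0.43 to 0.22 in the other 10 libraries (Pearson, across genes, which are not independent replicates). The fold change of experiment 1 against the rest correlated with GC content at 0.52 over 14563 genes. Its median was -0.40 in the fifth of genes lowest in GC and 0.15 in the fifth highest (log2). The transcripts of Sdf2l1 (56.7% GC) and Creld2 (55.3%) are the richest in GC of the members, and Hsp90b1 (43.9%) is among the poorest, with Dnajb9 lowest at 40.6%. Hspa5 (44.4%) is close to Hsp90b1 in GC, but its fold change in experiment 1 was 0.19 ± 0.12 (log2 ± SE, edgeR adjusted p = 0.265). That of Dnajb9 was -0.26 ± 0.18 (adjusted p = 0.326), and neither passed. With GC content corrected in each library, the values were 0.46 for Sdf2l1 (adjusted p = 0.093), 0.22 for Creld2 (adjusted p = 0.126) and -0.24 for Hsp90b1 (adjusted p = 0.0559). EdgeR then called 0 of the 10 members, and 5 had an unadjusted p under 0.05. Of all 14563 genes, 1740 were called and 3874 had an unadjusted p under 0.05. The median correlation among the 5 genes was 0.79 after that correction, and Dnajb9 then correlated with them at 0.37 to 0.86, while Hsp90b1 remained negative, at -0.36 to -0.22.

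**Figure D4:**
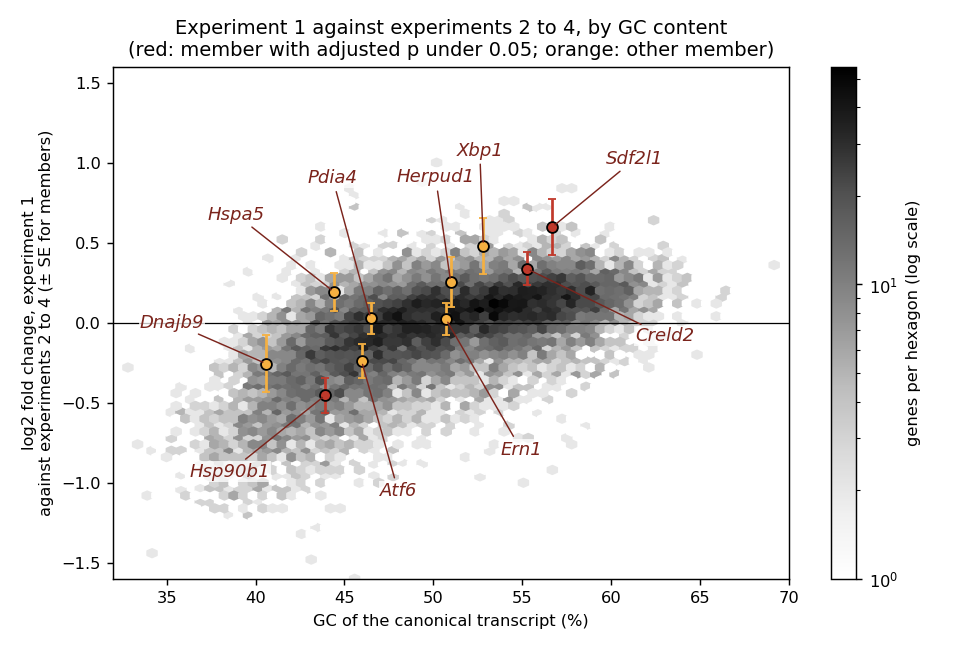
Log2 fold change of experiment 1 against experiments 2 to 4 (vertical axis) by GC content of the canonical transcript (horizontal axis, %); grey hexagons count all genes tested within the axes, and the 10 members are marked with ± SE. Hsp90b1, at 43.9% GC, lies at -0.45 and Sdf2l1, at 56.7% GC, at 0.60, with the median of all genes falling at -0.40 in the fifth lowest in GC. Genes beyond the axes are not drawn.

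Other genes of ER folding and stress, in 8 lists that exclude the members, were counted in the same pooled comparison. There 8.47% of the 14392 genes tested were higher and 10.3% lower. List counts were not tested against these shares. Of 12 UPR sensors, processing enzymes and transcription factors, 0 were higher and 1 lower: Mbtps1, the protease that cuts ATF6, fell at -0.30 ± 0.09 (log2 ± SE, adjusted p = 0.0308). Mbtps1 passed against WT clone1 alone (-0.37 ± 0.09, adjusted p = 0.0053) but not against WT clone2 alone (-0.22 ± 0.09, adjusted p = 0.0667). In the pooled comparison Eif2ak3, which encodes PERK, was -0.37 ± 0.16 and did not pass (adjusted p = 0.128). Of 11 ER chaperones and co-chaperones, 1 was lower, Dnajb11, which encodes the BiP co-chaperone ERdj3, at -0.29 ± 0.08 (adjusted p = 0.0296), and it was not called once experiment 1 of p27 KO and WT clone1 was left out. Of 12 disulfide isomerases and oxidases, 1 was higher: Ero1a, the oxidase that recharges disulfide isomerases, had 74.3 ± 7.37 CPM in p27 KO, 50.4 ± 10.2 CPM in WT clone2 and 41.4 ± 5.68 CPM in WT clone1 (SD, n = 4 each), and rose by 0.69 ± 0.14 (adjusted p = 0.00382). The medians of these lists were -0.14, -0.03 and 0.05 (log2).

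Of 18 genes of ER-associated degradation, the process that Herpud1 serves, edgeR called 0, with 4 at an unadjusted p under 0.05, and DESeq2 called 2, Erlec1 and Faf2. Of 16 genes of ER entry and signal peptide removal, 1 was higher and 2 lower: Ssr1, a subunit of the translocon-associated protein complex, rose by 0.45 ± 0.07 (adjusted p = 0.000428), while the signal peptidase subunit Sec11c was at -0.55 ± 0.12 (adjusted p = 0.00667) and Tram1, a membrane protein of the translocon, at -0.44 ± 0.13 (adjusted p = 0.0363). Tram1 was not called with the GC correction or without experiment 1 of p27 KO and WT clone1, nor against WT clone2 alone (-0.21 ± 0.09, adjusted p = 0.0858). Of 13 genes of collagen folding in the ER, 2 were higher, the lysyl hydroxylase Plod2 at 0.80 ± 0.13 (adjusted p = 0.00079) and the prolyl hydroxylase subunit P4ha1 at 0.68 ± 0.15 (adjusted p = 0.00726). Of 13 cytosolic heat shock genes, Hspa8 was higher at 0.47 ± 0.10 (adjusted p = 0.00739) and Hspa1a lower at -0.71 ± 0.18 (adjusted p = 0.0171). Hspa1a had only 25 to 42 reads in the KO libraries and 50 to 94 in the WT libraries. Hspa1b, on the same list, was at 0.32 ± 0.42 and did not pass (adjusted p = 0.651). In the order of this paragraph the lists' medians were -0.04, -0.14, 0.15 and 0.08 (log2). Without experiment 1 of p27 KO and WT clone1 the collagen folding median turned to -0.018 and the heat shock median was 0.0021. Fkbp10, a collagen-folding prolyl isomerase, was then called lower too, as it was with the GC correction, against -0.40 ± 0.16 with all libraries (adjusted p = 0.106).

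The PERK and ATF4 arm is the branch of the response whose sensor is not among the members. Of the 8 lists, it had the most calls in the pooled comparison. Of its 10 genes 5 were higher and 0 lower, with a median log2 fold change of 0.30. The lists were chosen with earlier results of these data known, so this order among them is description only. Against WT clone2, 7 of the 10 genes of this arm were higher and 0 lower, while the ER entry list had 5 higher and 2 lower of 16. Over all genes tested, 19.2% were higher and 19.2% lower there. Against WT clone1, 4 of the arm's 10 genes were higher and 0 lower, beside 16.8% and 19.3% of all genes tested. In that comparison ER-associated degradation had 1 higher and 6 lower of 18 genes. Heat shock had 4 higher and 3 lower of 13, and ER entry 2 higher and 4 lower of 16. Atf4, the transcription factor that PERK signalling turns on, had 446 ± 20.9 CPM in p27 KO, 289.7 ± 32.04 CPM in WT clone2 and 244 ± 26.6 CPM in WT clone1 (SD, n = 4 each). It rose by 0.74 ± 0.10 (adjusted p = 0.000318), and Ddit3, which encodes the stress factor CHOP, by 0.79 ± 0.11 (adjusted p = 0.000296). Trib3, a pseudokinase that ATF4 induces, rose by 1.25 ± 0.32 (adjusted p = 0.0162), Eif2s1, the translation factor subunit that PERK phosphorylates, by 0.27 ± 0.07 (adjusted p = 0.0215) and the stress-induced Sesn2, named after its value was seen, by 0.65 ± 0.20 (adjusted p = 0.0347). Of these genes, Atf4, Ddit3, Trib3 and Eif2s1 also passed against each WT line, where Hspa5, at -0.11 ± 0.14 against WT clone2 and 0.07 ± 0.14 against WT clone1, did not. Without experiment 1 of p27 KO and WT clone1, 4 of the 5 were called, Trib3 being lost. A test of the members against this list was not run. Gene counts do not show whether PERK was active, and what raised these genes was not tested. The messenger of PERK, Eif2ak3, was -0.37 ± 0.16 in the pooled comparison and did not pass the edgeR test (adjusted p = 0.128).

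**Figure D5:**
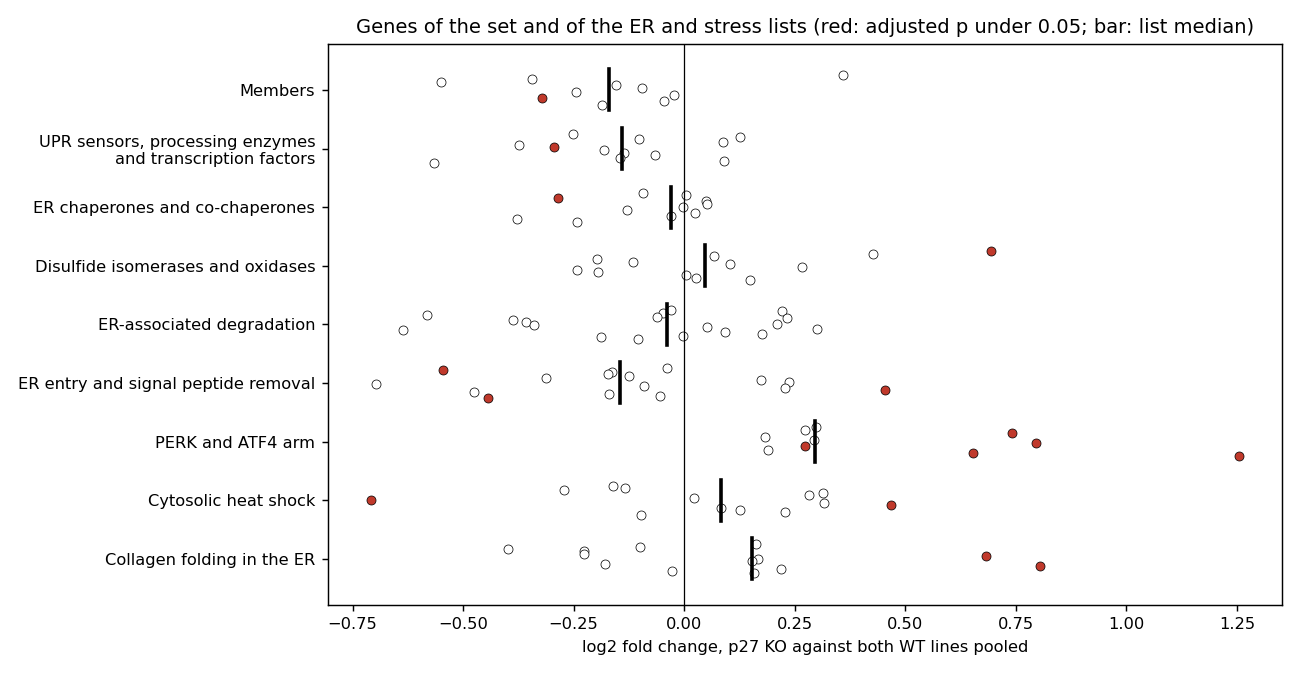
Log2 fold change in p27 KO against both WT lines pooled (horizontal axis) of each tested gene (points) in the set and in 8 other lists (rows); red points passed the edgeR test at an adjusted p under 0.05 and black bars are medians. The members have a median of -0.17 and 1 red point, and the PERK and ATF4 arm a median of 0.30 and 5 red points.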

How the data were processed

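Bulk RNA-seq was measured in 12 libraries of 3 fibroblast lines, 4 per line, grouped by the titles in the labels. Reads were checked with FastQC and aligned with STAR 2.5.4a to GRCm39, per the submitters' processing notes. Sources used here do not name the GENCODE release, the strand setting or the gene filter. The authors deposited whole-number counts per gene, which were the input to every test. The authors also deposited CPM and log2 CPM per library, per the file headers, which were read but not tested. For 1 comparison, the authors deposited a mean normalised signal, a log2 fold change with its standard error, a test score and p-values, per the file headers, without naming the tool.

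Of 15207 entries, 51 without a gene name (2.04 to 5.25% of counts) were left out. Counts were tested with edgeR 4.0.16 quasi-likelihood (TMM, filterByExpr, 14392 genes kept, Benjamini-Hochberg adjustment over all of them, threshold 0.05). The 12 libraries shared 1 dispersion estimate, with p27 KO against pooled WT as 1 fit and a mean per line as another. Errors of log2 fold changes are the fold change over the root of F. Other settings tried were each library left out, DESeq2 1.42.0 or only its size factors, no filter, experiment as a block, counts summed per line, and, chosen after seeing the data, a GC correction (per library, a lowess of log2 CPM on transcript GC, span 0.3, as offset) and the comparison of experiment 1 with the rest. Scripts were tested on simulated data. No pair of libraries of the same line agreed within sampling noise (chi-square over its degrees of freedom, 10.3 to 66.5). Pairs from different lines were not checked in this way.

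The named genes are the 10 members, Cdkn1b, up to 4 genes per list with the smallest adjusted p, and the 5 genes most correlated with Hspa5. The members and lists were chosen with earlier results of these data known. Same-numbered libraries of WT clone2 and WT clone1 deviated together in all 4 pairs (r of 0.109 to 0.297), above the 0.1 set here as a rule. For p27 KO the lowest pair fell under 0.1 with either line, at 0.0997 with WT clone1 and 0.042 with WT clone2. Its highest pairs were at 0.75 with WT clone1 and 0.31 with WT clone2. Libraries with different numbers were not compared, so these values do not establish pairing of any lines. Gene positions and exons come from GENCODE vM39 on GRCm39, where 15153 of 15156 names matched.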

Additional observations from a re-analysis of the deposited data

Results flagged for a closer look

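Ern1 and Xbp1 differed between the 2 wild-type lines by the test of that difference, so the contrast of p27 KO depends on the line it is set against. WT clone2 minus WT clone1 was -0.94 for Ern1 and -0.97 for Xbp1 (log2).

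In single lines, 6 of 126 groups of 4 libraries, over 42 named genes in 3 lines, held a library far from the other 3, and chance gives about 1 in 20. No member was among them. The values were 85.6 CPM for Prdx4 and 302 CPM for Ssr1 in experiment 1 of p27 KO, and 1.44 CPM for Hspa1a in experiment 4 of p27 KO. In WT clone2 they were 35.7 CPM for Wfs1 and 194 CPM for Plod3 in experiment 3, and 60.6 CPM for Dnajb1 in experiment 2.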

How the results depend on the processing

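Of the members' fold changes recomputed under the alternatives, 874 kept their direction and their side of the threshold, 48 no longer passed, 33 newly passed and 35 changed sign. For p27 KO against both WT lines pooled, 1 member was called, and the count was 2 with the replicate block, 2 with DESeq2, 3 with 1 mean per line and 0 with counts summed per line, and 0 to 2 with a library left out. Against WT clone1 (2 called) it was 4 with the replicate block, with and without GC correction, and 1 to 3 with a library left out. Against WT clone2 (5 called) it was 6 with the replicate block, with and without GC correction, 4 with no filter, 4 with GC correction and 2 to 5 with a library left out. Over all genes tested, the block called 6412 of 14566 against WT clone1, 6752 against WT clone2 and 2503 against both pooled. With the block and GC correction these were 7098, 7397 and 2821 of 14563. Between the WT lines the block called 7342 genes, and 8059 with GC correction too. WT clone2 against WT clone1 (2 called) gave 5 with the replicate block, with and without GC correction. For experiment 1 (3 called) it was 0 without experiment 1 of p27 KO and WT clone1, 0 with GC correction, and 0 to 5 with a library left out. Signs turned in the pooled contrast for Hspa5 with GC correction (0.052, and 0.029 with the block too). Against WT clone2, Herpud1 turned to 0.0061 with DESeq2 size factors, 0.023 without a filter, 0.0026 with the block and 0.0063 with DESeq2, and Sdf2l1 to -0.10 without experiment 1 of p27 KO and WT clone1. For experiment 1, Ern1 turned to -0.0075 and Pdia4 to -0.12 without those libraries, and Ern1 to -0.025 and Dnajb9 to 0.20 with GC correction. With a library left out, signs turned in the pooled contrast for Hspa5 (-0.12 to 0.10), Sdf2l1 (-0.25 to 0.20) and Herpud1 (-0.24 to 0.038). They turned against WT clone1 for Hspa5 (-0.027 to 0.18), Hsp90b1 (-0.21 to 0.063) and Sdf2l1 (-0.42 to 0.027), and against WT clone2 for Hspa5 (-0.20 to 0.022), Sdf2l1 (-0.071 to 0.38) and Herpud1 (-0.14 to 0.19). For experiment 1 they turned for Ern1 (-0.0077 to 0.063) and Pdia4 (-0.025 to 0.10). List counts differed for UPR sensors, processing enzymes and transcription factors (4 against WT clone1, 3 against WT clone2, 2 with DESeq2, 3 with GC correction), ER chaperones (2, 2, 2 and 2 in the same order, and 0 without the 2 first experiments), disulfide isomerases (3 against either line), ER-associated degradation (7 against WT clone1, 4 against WT clone2, 2 with DESeq2), ER entry (6 against WT clone1, 7 against WT clone2), heat shock (7 against WT clone1), the PERK and ATF4 arm (4 against WT clone1, 7 against WT clone2, 4 without the 2 first experiments) and collagen folding (5 against WT clone2). The median correlation of the 5 genes grouped with Hspa5 was 0.60 for levels, 0.83 for deviations from line means, 0.77 without 2 libraries and 0.79 after GC correction. The cause of these changes was not tested.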
